A study of Mus musculus with 9 samples.

Results

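The genes described here encode splicing factors and RNA helicases that an expression table of mouse liver lists. They are 72 of the 5608 genes in the expression table and of the 4665 genes with a mean of at least 1 TPM (the normalised transcript abundance) over the 9 libraries. These families are incomplete in the table: it lists 6 of 11 spliceosome helicases searched and 2 of the 7 genes Lsm2 to Lsm8. Members were chosen by symbol, as names that begin with Snrp, Sf3a, Sf3b, U2af, Prpf, Lsm, Srsf, Hnrnp, Rbm, Ddx or Dhx and, for Lsm, Rbm, Ddx and Dhx, go on with a number. Of 75 matching symbols, Rbm3 was left out by name, and Ddx60 (mean 0.483 TPM) and Lsm11 (0.789 TPM) lay under the minimum. The members closest above it were Ddx31 at 2.11, Rbm12b2 at 2.34 and Rbm27 at 2.72 TPM. The same minimum was used for testing, so every member was tested.

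Livers came from wild-type C57BL/6 J mice, 3 per group, which were all sacrificed on day 5, and the sources used here give neither the age nor the sex of the mice. FED mice ate the standard diet ad libitum. IF mice (intermittent fasting) had no food for 24 h on day 1 and again on day 4. FMD mice received a commercial fasting-mimicking diet from day 2 to day 4, with 50% of their usual calories on the first diet day and 10% on the later ones. FED and IF libraries carry the replicate numbers 1, 2 and 3, and FMD libraries 1, 2 and 4.

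Pre-mRNA splicing is carried out by the spliceosome, which assembles on each intron from small nuclear ribonucleoproteins (snRNPs), each an RNA held by Sm or Lsm proteins with further specific subunits. SR proteins and hnRNP proteins bind the transcript and favour or repress the use of nearby splice sites. DEAD-box (Ddx) and DEAH-box (Dhx) helicases use ATP to remodel RNA in splicing, ribosome assembly, export, translation and decay. Many genes of these families are known to limit their own protein by splicing their transcripts into forms that are degraded, and gene-level TPM cannot separate such forms.

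TPM is a level per transcript length and relative to all transcripts of a library, so levels of different genes can be compared. The libraries' depth is unknown, and the listed genes held 26.3 to 43.0% of each library's total TPM. How those genes were selected is not given in the sources used here, so shares and medians over all genes describe the listed genes alone. As a whole these genes were higher in the diet groups: the median log2 fold change over the 4665 genes was 0.24 in the comparison IF vs FED, 0.48 in FMD vs FED and 0.24 in FMD vs IF. Each result is therefore given as deposited and after division by a size factor per library, the median over genes of that library's ratio to the geometric mean of all libraries (scaled values). FMD replicate 1 stood apart, as it was the highest library for 65.8% of all genes tested. Of the hepatocyte markers searched, Ass1 alone was listed (2335 to 5153 TPM over all libraries), and no marker of endothelial cells, lymphocytes or red cells was listed. The fibroblast markers Col1a1 and Dcn summed to 65.0 to 91.8 TPM in FED mice, to 121 to 157 in IF mice and to 106 to 214 in FMD mice. The macrophage marker Cd68 was at 6.35 to 10.35 TPM in FED, 3.14 to 5.99 in IF and 5.75 to 64.0 in FMD, and the exocrine pancreas gene Cela1 at 23.8 to 30.03, 5.78 to 7.57 and 3.23 to 4.17 TPM. The part of these markers in the results was not tested. In bulk liver, fewer cells of a type and less RNA per cell cannot be told apart.

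The core snRNP proteins had the highest levels among the 9 groups of members, with a median of 70.3 TPM for the 7 Snrp genes. The median was 33.9 TPM for the 11 Hnrnp genes, 28.6 for the 6 Srsf genes, 25.2 for the 3 Lsm genes and 24.7 for the 3 Sf3 and U2af genes. It was 15.8 TPM for the 13 Ddx genes, 6.40 for the 13 Rbm genes, 6.29 for the 9 Dhx genes and 5.91 for the 7 Prpf genes. Within FED mice the members varied little, with a median SD of 0.09 on the log2(TPM + 1) scale, against 0.11 in IF and 0.26 in FMD. The medians over all genes tested were 0.10, 0.11 and 0.25.

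**Figure D1:**
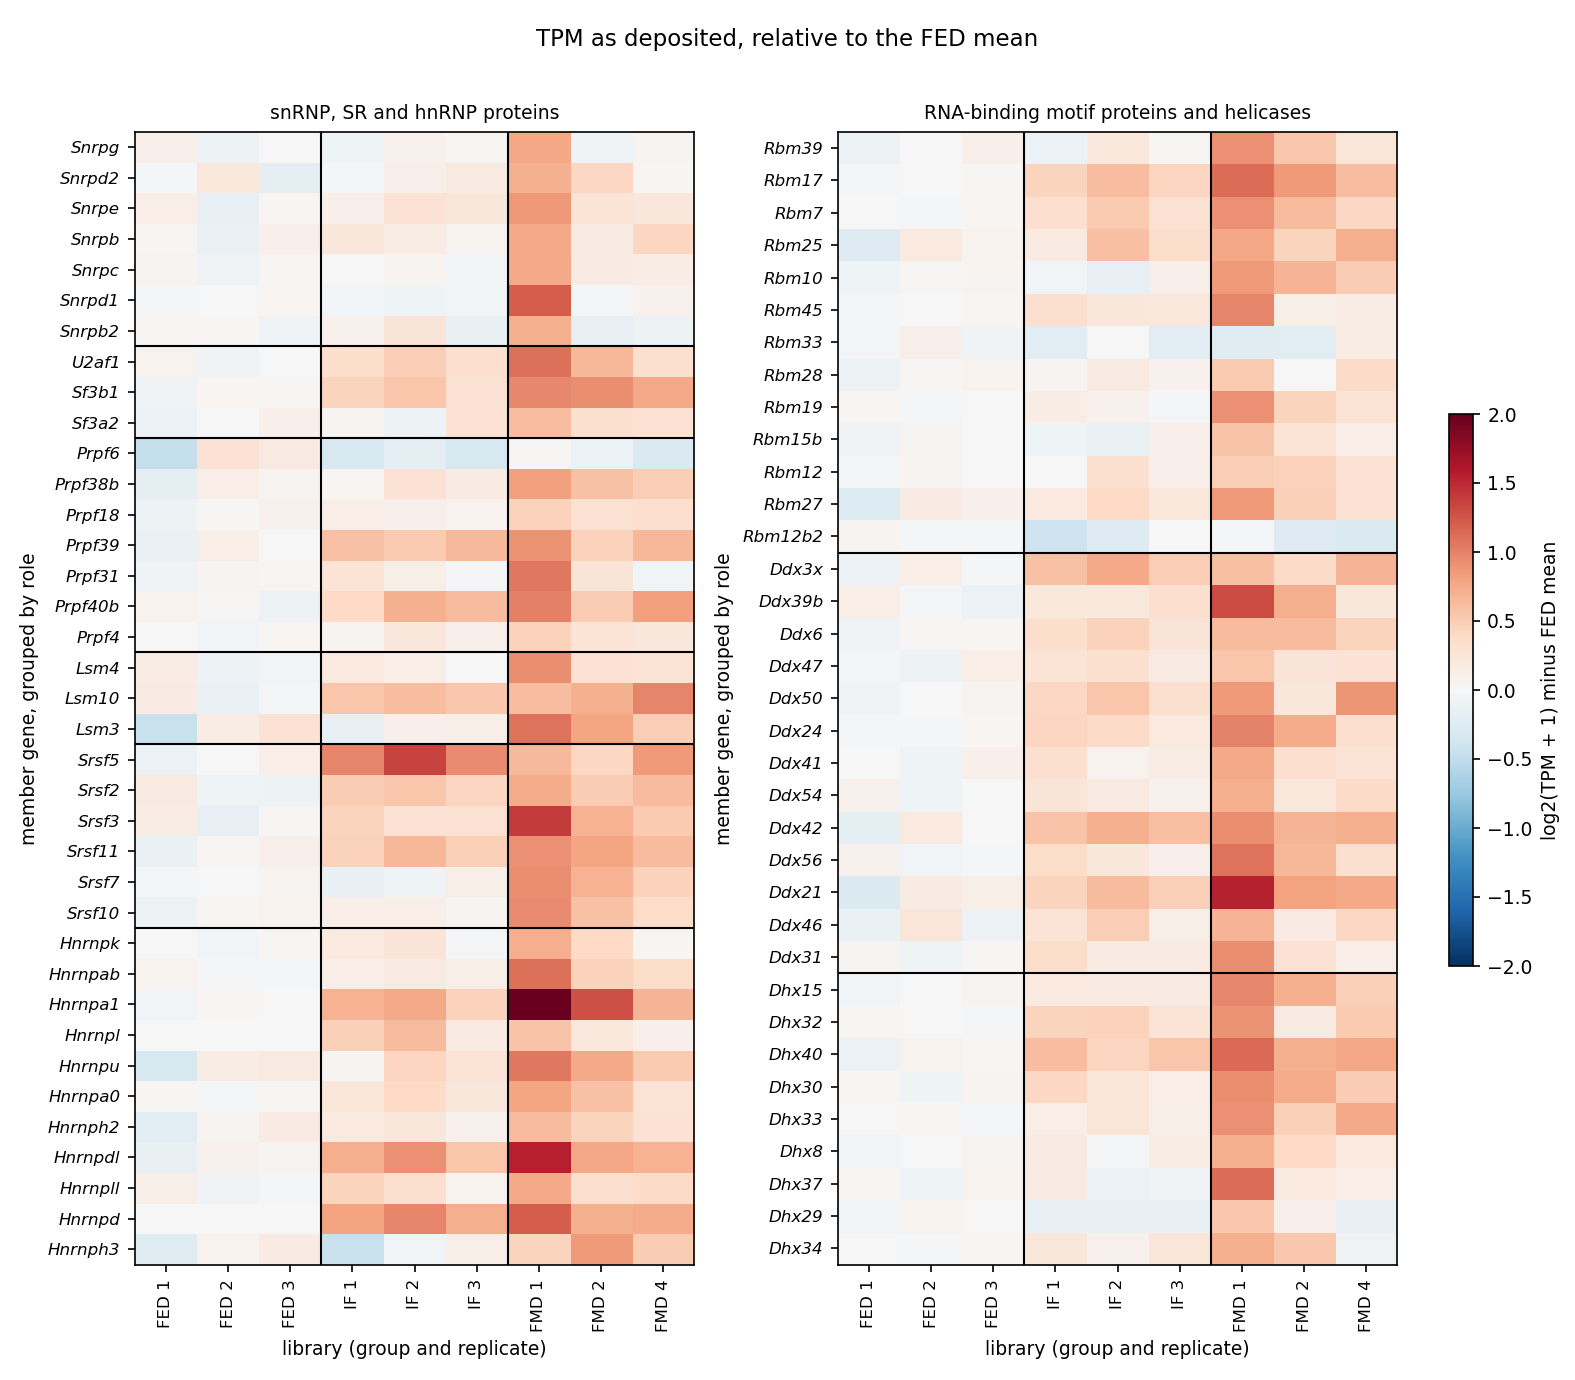
Colour shows log2(TPM + 1), as deposited, minus the gene's mean in the 3 FED libraries, for each of the 72 members (rows, grouped by role) in each of the 9 libraries (columns). The FMD replicate 1 column is the darkest, Srsf5 is darkest in the IF columns, and Prpf6, Rbm33 and Rbm12b2 have FMD means below their FED means.

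The summed level of the 72 members was 1636, 1642 and 1679 TPM in FED replicates 1, 2 and 3. It was 2032, 2212 and 1973 TPM in IF and 3102, 2295 and 2170.03 TPM in FMD. Every diet library lay above every FED library, and FMD replicate 1 was the highest library for 62 of the 72 members. As a share of the listed TPM the members made up 0.593% ± 0.0328 in FED, 0.609% ± 0.0230 in IF and 0.658% ± 0.0551 in FMD (SD, n = 3 each). The share was 0.721% in FMD replicate 1, and 0.632% and 0.621% in FMD replicates 2 and 4. The FED libraries ran from 0.558 to 0.624% and the IF libraries from 0.591 to 0.635%. After scaling the groups overlapped, with sums of 1991 to 2007 TPM in FED, 1975 to 2168 in IF and 1986 to 2172 in FMD.

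**Figure D2:**
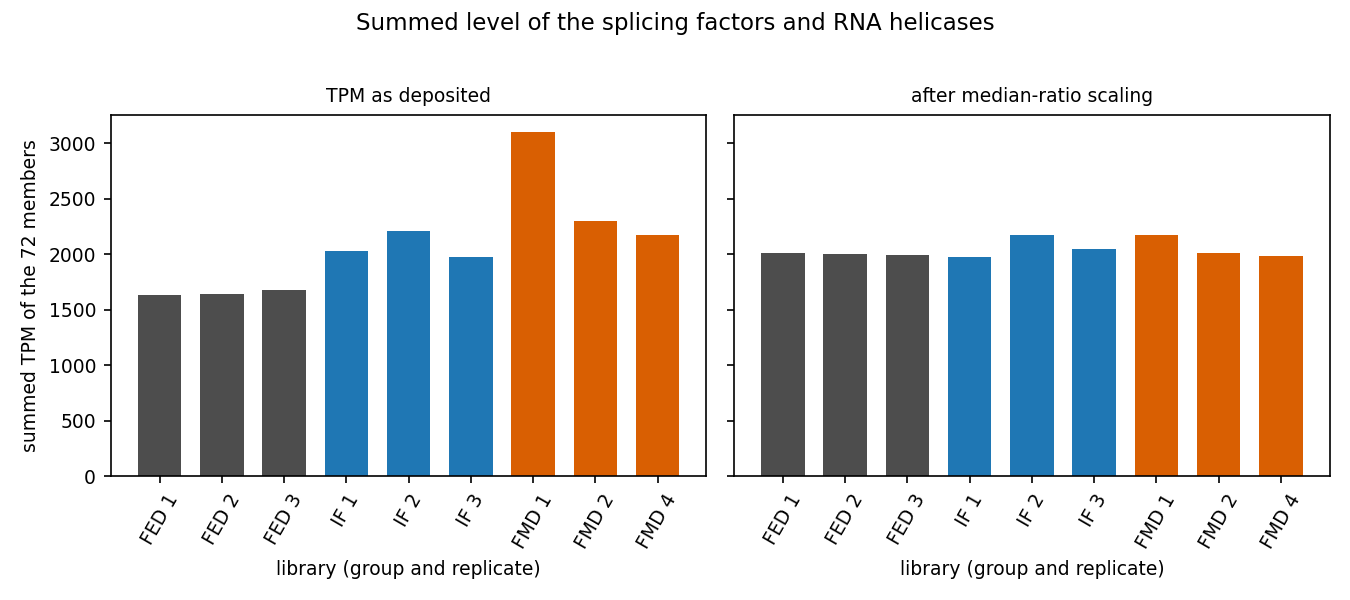
Bars show the summed TPM of the 72 members in each library, as deposited (left) and after median-ratio scaling (right), with 1 bar per mouse. As deposited, the FED bars end between 1636 and 1679 TPM, below all IF and FMD bars, whereas after scaling the bars of the 3 groups overlap.

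The comparison of IF with FED livers asked which members differed after the second 24 h fast. Under limma's moderated test, 5 of the 72 members (6.94%) were called higher and 0 lower, where a call needs a Benjamini-Hochberg adjusted p below 0.05 and a fold change over 1.5 in either direction on the log2(TPM + 1) scale. Among all genes tested 10.3% were called higher and 1.59% lower, so the members' share lay below the background. With no fold limit 14 members were higher and 0 lower, against 22% and 1.86% of all genes. At an unadjusted p under 0.05, 22 members were higher and 0 lower. The share of all genes at that unadjusted limit is not given here for any comparison. The 5 members were Srsf5, Hnrnpd, Hnrnpdl, Ddx42 and Ddx3x. After scaling, Srsf5 and Hnrnpd were still called higher, against 3.69% of all genes, and 0 members were called lower (3.45% of all genes), with 8 members lower at an unadjusted p under 0.05. The members' median log2 fold change was 0.19 against 0.24 over all genes tested, and after scaling -0.04 against 0.00. The IF libraries lay above all FED libraries for 36 members (53.8% of all genes) and below them for 2 (6.77%). After scaling these were 17 members (23.2% of all genes) and 19 members (23.0%).

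Srsf5 (NCBI gene 20384), an SR protein that binds exonic enhancers, had the largest difference between IF and FED. It was at 89.6, 97.6 and 107 TPM in FED, at 192, 252 and 189.7 TPM in IF and at 153, 130.2 and 178 TPM in FMD. The IF libraries were the highest, the FED libraries the lowest, and no group overlapped another. As deposited the log2 fold change in IF was 1.09 ± 0.15 (SE, adjusted p = 0.00113), and IF livers held 2.16 times the FED mean. After scaling the log2 fold change was 0.81 ± 0.17 (adjusted p = 0.0115). The scaled call was lost without FED replicate 1 (0.76, adjusted p = 0.0508) or IF replicate 2 (0.69, adjusted p = 0.0551). In FMD vs FED it was 0.64 ± 0.15 (adjusted p = 0.00547) but 0.09 after scaling (adjusted p = 0.749), where FMD replicates 1 and 2 (107 and 114 TPM) lay within or below the FED range of 109.96 to 127 TPM. As deposited that call was lost without FED replicate 1 (0.57) or FMD replicate 4 (0.53), both under the fold limit. Srsf5 was also 1 of 3 members lower in FMD than in IF, with Hnrnpl and Ddx3x. As deposited its difference of -0.46 ± 0.15 passed neither the adjusted p limit (adjusted p = 0.0808) nor the fold limit. After scaling it passed both (-0.73, adjusted p = 0.0455). That call was lost when any library but FMD replicate 4 was left out (adjusted p 0.0657 to 0.158).

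Hnrnpd (NCBI gene 11991), also known as AUF1, binds AU-rich elements and takes part in mRNA decay. It was at 4.65, 4.63 and 4.69 TPM in FED, at 8.90, 10.1 and 8.32 TPM in IF and at 12.1, 8.30 and 8.44 TPM in FMD. All 6 diet libraries lay above all FED libraries, and the IF and FMD libraries overlapped. The log2 fold change was 0.84 ± 0.15 in IF livers (adjusted p = 0.0034) and 0.89 ± 0.15 in FMD livers (adjusted p = 0.000941). After scaling it stayed past both limits in IF at 0.60 (adjusted p = 0.00301), and in FMD it was 0.41 with an adjusted p of 0.0117, under the fold limit. Without IF replicate 2 the scaled IF value was 0.54, also under it. Its paralogue Hnrnpdl was at 13.4, 16.0 and 15.6 TPM in FED, at 25.6, 28.9 and 22.4 TPM in IF and at 45.7, 26.3 and 24.8 TPM in FMD. Again no diet library reached down into the FED range. Its log2 fold change was 0.73 ± 0.21 in IF livers (adjusted p = 0.0276) and 1.01 ± 0.21 in FMD livers (adjusted p = 0.00273), and 0.47 and 0.48 after scaling, where neither was called. The IF call of Hnrnpdl was lost when any of FED replicate 1, 2 or 3 or IF replicate 1 or 2 was left out (adjusted p 0.0624 to 0.112).

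The remaining members called in IF were helicases. Ddx42, which takes part in U2 snRNP assembly, was at 8.62, 11.5 and 9.93 TPM in FED, at 15.2, 16.9 and 15.7 TPM in IF and at 19.9, 16.6 and 16.9 TPM in FMD. Every diet library was above every FED library. Its log2 fold change was 0.63 ± 0.13 in IF livers (adjusted p = 0.00747) and 0.77 ± 0.13 in FMD livers (adjusted p = 0.000979), and 0.37 and 0.26 after scaling, where neither was called. Ddx3x, a helicase of translation initiation, was at 42.7, 50.9 and 45.5 TPM in FED, at 70.0, 79.1 and 65.3 TPM in IF and at 70.4, 60.8 and 74.3 TPM in FMD. Both diet groups lay above FED and overlapped each other. The log2 fold change of Ddx3x was 0.61 ± 0.13 in IF (adjusted p = 0.00737; 0.34 and not called after scaling), and the IF call was lost without FED replicate 1 (0.56) or IF replicate 2 (0.54). The Ddx42 call in IF was lost without FED replicate 1 (0.53).

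In FMD vs FED livers, which ask what differed after 3 days of the diet, 33 of the 72 members (45.8%) were called higher and 0 lower, against 35.5% and 1.59% of all genes tested. With no fold limit 55 were higher and 0 lower, against 64.7% and 2.55% of all genes. At an unadjusted p under 0.05, 59 members were higher and 0 lower. The 64.7% of all genes that were higher at an adjusted p under 0.05 pass this unadjusted limit as well. After scaling, 1 member was called higher (Hnrnpa1; 5.49% of all genes) and 1 lower (Prpf6; 5.64% of all genes). The members' median log2 fold change was 0.55 against 0.48 over all genes, and 0.06 against 0.01 after scaling. No overlap with FED, with FMD higher, was found for 59 members (68.0% of all genes), and with FMD lower for 0 (2.62%). After scaling these were 14 members (18.5% of all genes) and 9 members (18.2%). Without FMD replicate 1, 21 members were called higher and 0 lower as deposited.

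**Figure D3:**
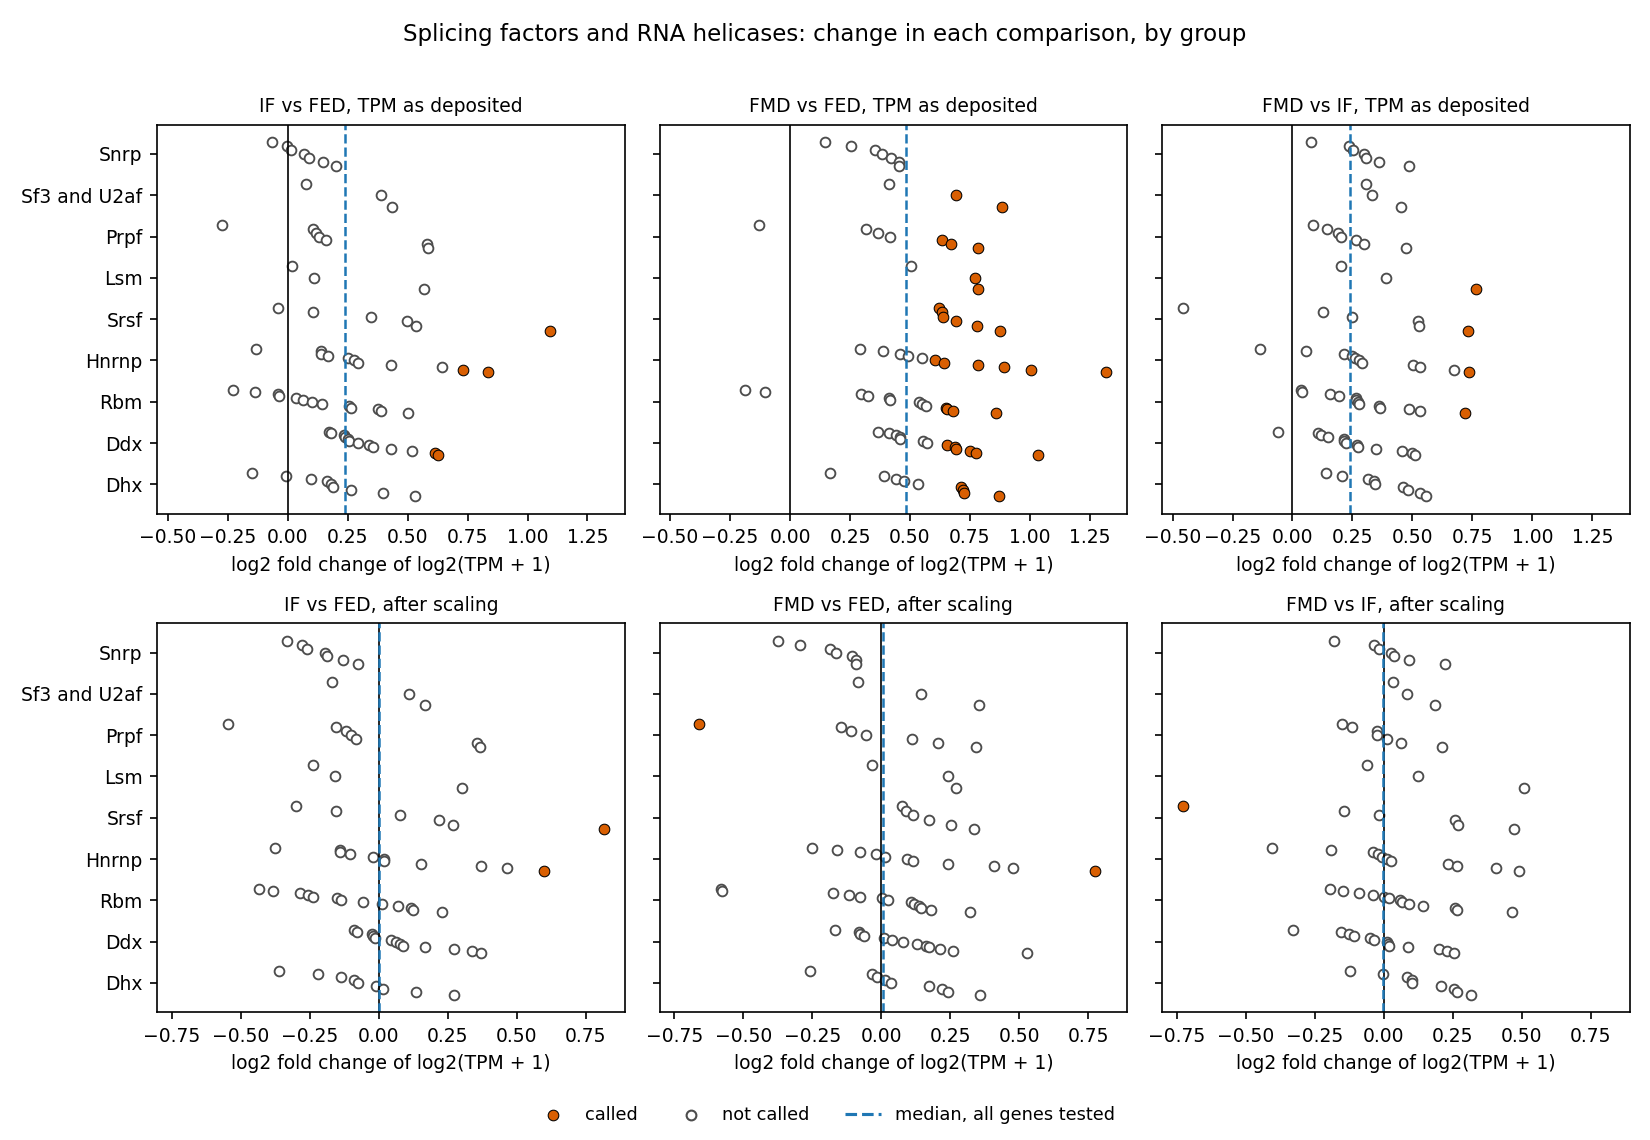
Each point is 1 of the 72 members, placed by its log2 fold change on the log2(TPM + 1) scale (x axis) and its group (y axis), for the 3 comparisons as deposited (top) and after scaling (bottom). Filled points are called, and the dashed line is the median of all genes tested; in FMD vs FED as deposited all 6 Srsf points and none of the 7 Snrp points are filled, and after scaling the points centre near 0.

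None of the 7 Snrp genes was called by limma in any comparison as deposited or after scaling, and an unadjusted p under 0.05 was found for 0 of them in IF vs FED, 4 in FMD vs FED and 1 in FMD vs IF as deposited. They encode part of the Sm ring (Snrpb, Snrpd1, Snrpd2, Snrpe, Snrpg) and subunits of the U1 (Snrpc) and U2 (Snrpb2) snRNPs. Their log2 fold changes ran from -0.06 to 0.20 in IF and from 0.15 to 0.46 in FMD vs FED, all below the medians of all genes, 0.24 and 0.48. In FMD vs IF the median of the 7 genes was 0.30 against 0.24 over all genes, and 5 of the 7 lay above that all-gene median. Snrpg, the most abundant of them, was at 99.2 ± 6.79 TPM in the FED group, 100.2 ± 5.998 in IF and 122 ± 40.9 in FMD (SD, n = 3 each). Most of the FMD spread came from 1 library, since Snrpg stood at 169 TPM in FMD replicate 1 and at 94.7 and 103 TPM in replicates 2 and 4. Snrpd1 had the widest FMD spread of any member, with 43.1 TPM in replicate 1 and 17.8 and 19.4 TPM in the others. After scaling the median of the 7 genes was -0.19 in IF vs FED, -0.16 in FMD vs FED and 0.03 in FMD vs IF.

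Of the 3 genes for factors that recognise the branch point and the 3′ splice site, 2 were called higher in FMD vs FED as deposited, against 35.5% of all genes, and 0 after scaling. Sf3b1, the U2 snRNP subunit that binds the branch point, was at 16.55, 17.8 and 17.7 TPM in FED, at 23.9, 25.8 and 21.7 TPM in IF and at 34.8, 33.8 and 30.1 TPM in FMD. The 3 groups did not overlap, and FED was lowest and FMD highest. Its log2 fold change of 0.88 ± 0.11 in FMD vs FED had the smallest adjusted p among the members (0.000261), and after scaling it was 0.35 (adjusted p = 0.0262), under the fold limit. U2af1, the small U2AF subunit that reads the 3′ splice site, was at 79.7 ± 4.06 TPM in the FED group, 105 ± 6.35 in IF and 133 ± 36.6 in FMD (SD, n = 3 each). U2af1 was called in FMD vs FED at 0.69 ± 0.17 (adjusted p = 0.00622; 0.15 after scaling, not called) and not without FMD replicate 1 (0.49). Sf3a2, a further U2 snRNP subunit, was not called.

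Of the 7 Prpf genes, 3 were called higher in FMD vs FED as deposited, against 35.5% of all genes, and 0 higher after scaling. These were Prpf40b (0.78 ± 0.15, adjusted p = 0.00184) and Prpf39 (0.67 ± 0.13, adjusted p = 0.0024), both related to U1 snRNP proteins of yeast, and Prpf38b (0.63 ± 0.13, adjusted p = 0.00312). Their values after scaling were 0.34, 0.20 and 0.11. The calls of Prpf38b (0.54) and Prpf39 (0.56) were lost without FMD replicate 1, and that of Prpf38b also without FED replicate 1 (0.54). Prpf6, the tri-snRNP protein that bridges U5 and U4/U6, was the only Prpf gene called after scaling and the only member called lower in FMD than in FED under that scaling (3 members were under quantile normalization). It was at 19.8, 34.5 and 31.8 TPM in FED, at 22.2, 24.6 and 22.1 TPM in IF and at 28.4, 25.5 and 22.8 TPM in FMD. FED replicate 1 lay below both diet groups and FED replicates 2 and 3 above them, which gave Prpf6 the widest FED spread of any member. As deposited its FMD vs FED log2 fold change was -0.13 (adjusted p = 0.541), and after scaling -0.66 (adjusted p = 0.0225), a call that was lost without FED replicate 2 (-0.51, adjusted p = 0.0788) or FED replicate 3 (adjusted p = 0.0837). Among the 3 Lsm genes, Lsm3 and Lsm10 were called higher in FMD as deposited (0.78 ± 0.20 and 0.77 ± 0.13; 0.27 and 0.24 after scaling, not called), and the call of Lsm3 was lost without FED replicate 1 (0.57). Lsm3 and Lsm4 belong to the rings on U6 RNA and on decaying mRNA, and Lsm10 to the U7 snRNP of histone mRNA processing. Lsm4 was at 27.5 ± 2.71 TPM in FED and 40.3 ± 11.4 in FMD (SD, n = 3 each) and was not called.

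The 6 Srsf genes listed were Srsf2, Srsf3, Srsf5, Srsf7, Srsf10 and Srsf11. All 6 were called higher in FMD vs FED (35.5% of all genes), by 0.62 to 0.87 on the log2 scale. After scaling none of them was called, and their median fell from 0.66 to 0.14. As deposited, all FMD libraries lay above all FED libraries in every Srsf gene, as they did in 68.0% of all genes. The smallest adjusted p was that of Srsf11, with 16.7 ± 1.43 TPM in the FED group, 24.6 ± 2.09 in IF and 29.4 ± 2.83 in FMD (SD, n = 3 each; 0.78 ± 0.12, adjusted p = 0.000689; 0.25 after scaling). In IF vs FED the 6 genes ran from -0.04 to 1.09. Srsf7, an SR protein that also takes part in mRNA export, was at the low end and Srsf5 at the high end of that range. The FMD vs FED call of Srsf7 was lost without FMD replicate 1 (0.57).

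Of the 11 Hnrnp genes, 6 were called higher in FMD vs FED as deposited (35.5% of all genes), and after scaling Hnrnpa1 alone. Hnrnpa1 (NCBI gene 15382), an abundant hnRNP protein that represses exon inclusion, had the largest FMD difference of any member. It was at 33.9, 36.2 and 35.5 TPM in FED, at 57.9, 60.1 and 49.0 TPM in IF and at 142, 87.55 and 57.0 TPM in FMD. The FMD libraries spread widely, and FMD replicate 4 lay within the IF range. The log2 fold change in FMD was 1.32 ± 0.25 (adjusted p = 0.00199) and 0.77 ± 0.19 after scaling (adjusted p = 0.0174), and without FMD replicate 1 the scaled value fell to 0.56, under the fold limit. The scaled call was also lost without FED replicate 1 (adjusted p = 0.0624) or FED replicate 3 (adjusted p = 0.0568). The others called were Hnrnpd, Hnrnpdl, Hnrnph3, Hnrnpab and Hnrnpu, and that of Hnrnph3 was lost without FED replicate 1 or FMD replicate 2 (0.48 each). Hnrnpk, the most abundant Hnrnp gene, was at 119 ± 4.06 TPM in the FED group, 131 ± 13.2 in IF and 159 ± 38.3 in FMD (SD, n = 3 each) and was not called (FMD vs FED adjusted p = 0.0566).

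In the Rbm group, which joins RNA-binding proteins of several functions, 4 of 13 genes were called higher in FMD vs FED as deposited (35.5% of all genes) and 0 after scaling. These were Rbm17, a splicing factor at the 3′ splice site (0.86 ± 0.13, adjusted p = 0.000707; 0.32 after scaling), and Rbm10, Rbm25 and Rbm7. Rbm39, a coactivator and U2AF-related splicing factor with the highest level of the group, was at 38.3 ± 2.79 TPM in FED and 58.2 ± 14.1 in FMD (SD, n = 3 each) and missed the fold limit at 0.57. Rbm12b2 and Rbm33 were, with Prpf6, the 3 members with negative values in FMD vs FED.

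Among the helicases, 6 of 13 Ddx and 4 of 9 Dhx genes were called higher in FMD vs FED as deposited, where 35.5% of all genes were, and 0 after scaling. Of 9 tested helicases known for ribosome assembly, 5 were called: Ddx21, Ddx24, Ddx50, Ddx56 and Dhx33. Ddx21, a nucleolar helicase, was at 5.28, 7.61 and 7.33 TPM in FED, at 9.43, 10.95 and 9.66 TPM in IF and at 21.2, 12.4 and 11.95 TPM in FMD. The groups did not overlap, with FED lowest and FMD highest. Its log2 fold change in FMD vs FED was 1.03 ± 0.21 (adjusted p = 0.0023) and 0.53 after scaling (adjusted p = 0.0329), under the fold limit. Of 6 tested spliceosome helicases, 3 were called as deposited: Ddx42, Ddx39b, which also serves mRNA export, and Dhx15, which takes spliceosomes apart. Dhx15 was at 24.8 ± 0.974 TPM in the FED group, 28.2 ± 0.327 in IF and 41.6 ± 7.13 in FMD (SD, n = 3 each; 0.71 ± 0.13, adjusted p = 0.00146; 0.17 after scaling). The call of Ddx39b (0.75 ± 0.22, adjusted p = 0.0129; 0.21 after scaling) was lost without FMD replicate 1 (0.47), as was that of Ddx56 (0.49). Of 4 tested helicases of translation, export and decay (Ddx3x, Ddx6, Dhx29, Dhx34), 0 were called in FMD vs FED, and 2 had an unadjusted p under 0.05. Dhx40, in none of these lists, had the smallest adjusted p among the Dhx genes (0.87 ± 0.13, adjusted p = 0.000681; 0.36 after scaling, under the fold limit), and the remaining one called was Dhx30.

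Both diets were compared with the same FED mice, so the calls against FED do not show where the diets differ from each other. Ddx3x, called in IF vs FED, was at 0.55 ± 0.13 in FMD vs FED (adjusted p = 0.00414), under the fold limit, and at -0.06 in FMD vs IF (adjusted p = 0.726).

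The direct comparison of FMD with IF livers asked where the diets differed from each other. Of the 72 members, 4 (5.56%) were called higher in FMD and 0 lower, against 4.67% and 0.472% of all genes tested. With no fold limit 7 were higher and 0 lower, against 6.9% and 0.707% of all genes. An unadjusted p under 0.05 was found for 28 members, of which 1 was lower. After scaling 0 members were called higher and 1, Srsf5, lower, and 1.11% of all genes were called in each direction. Of the 13 members with an unadjusted p under 0.05 after scaling, 3 were lower. No overlap with FMD higher was found for 25 members (33.6% of all genes) and with FMD lower for 1 member (3.04%), and after scaling for 12 (12.7%) and 4 (13.6%). The members' median log2 fold change was 0.28 against 0.24 over all genes, and 0.03 against 0.00 after scaling.

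Srsf7 was at 12.01, 12.2 and 12.8 TPM in FED, at 11.1, 11.5 and 13.4 TPM in IF and at 24.4, 20.5 and 17.3 TPM in FMD. The FED and IF libraries overlapped, and all FMD libraries lay above both. The FMD vs IF log2 fold change was 0.73 ± 0.14 (adjusted p = 0.0194) and 0.47 after scaling (adjusted p = 0.0421), under the fold limit. Rbm10, a regulator of alternative exons, showed the same order, with 6.98, 7.62 and 7.73 TPM in FED, 7.16, 6.57 and 8.01 TPM in IF and 14.3, 12.5 and 10.98 TPM in FMD. Its FMD vs IF value was 0.72 ± 0.13 (adjusted p = 0.0187) and 0.47 after scaling (adjusted p = 0.04003), again under the fold limit.

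Hnrnph3, an hnRNP H family protein, was at 5.29, 6.84 and 7.34 TPM in FED, at 4.44, 6.16 and 7.04 TPM in IF and at 9.14, 12.4 and 9.62 TPM in FMD. Lsm3 was at 6.77, 10.7 and 11.8 TPM in FED, at 8.42, 10.3 and 10.4 TPM in IF and at 21.2, 17.15 and 13.8 TPM in FMD. In both genes the FMD libraries lay above all others while FED and IF overlapped. The FMD vs IF value was 0.74 ± 0.18 for Hnrnph3 (adjusted p = 0.0373; 0.49 after scaling) and 0.77 ± 0.20 for Lsm3 (adjusted p = 0.0484; 0.51 after scaling), with neither called after scaling. Without any 1 of the 3 IF libraries 0 members were called (all 4 genes had an adjusted p over 0.05 there, and 17 to 19 members an unadjusted p under 0.05). Without FED replicate 2 or 3 the count was 2, and without FMD replicate 4 it was 16 members.

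**Figure D4:**
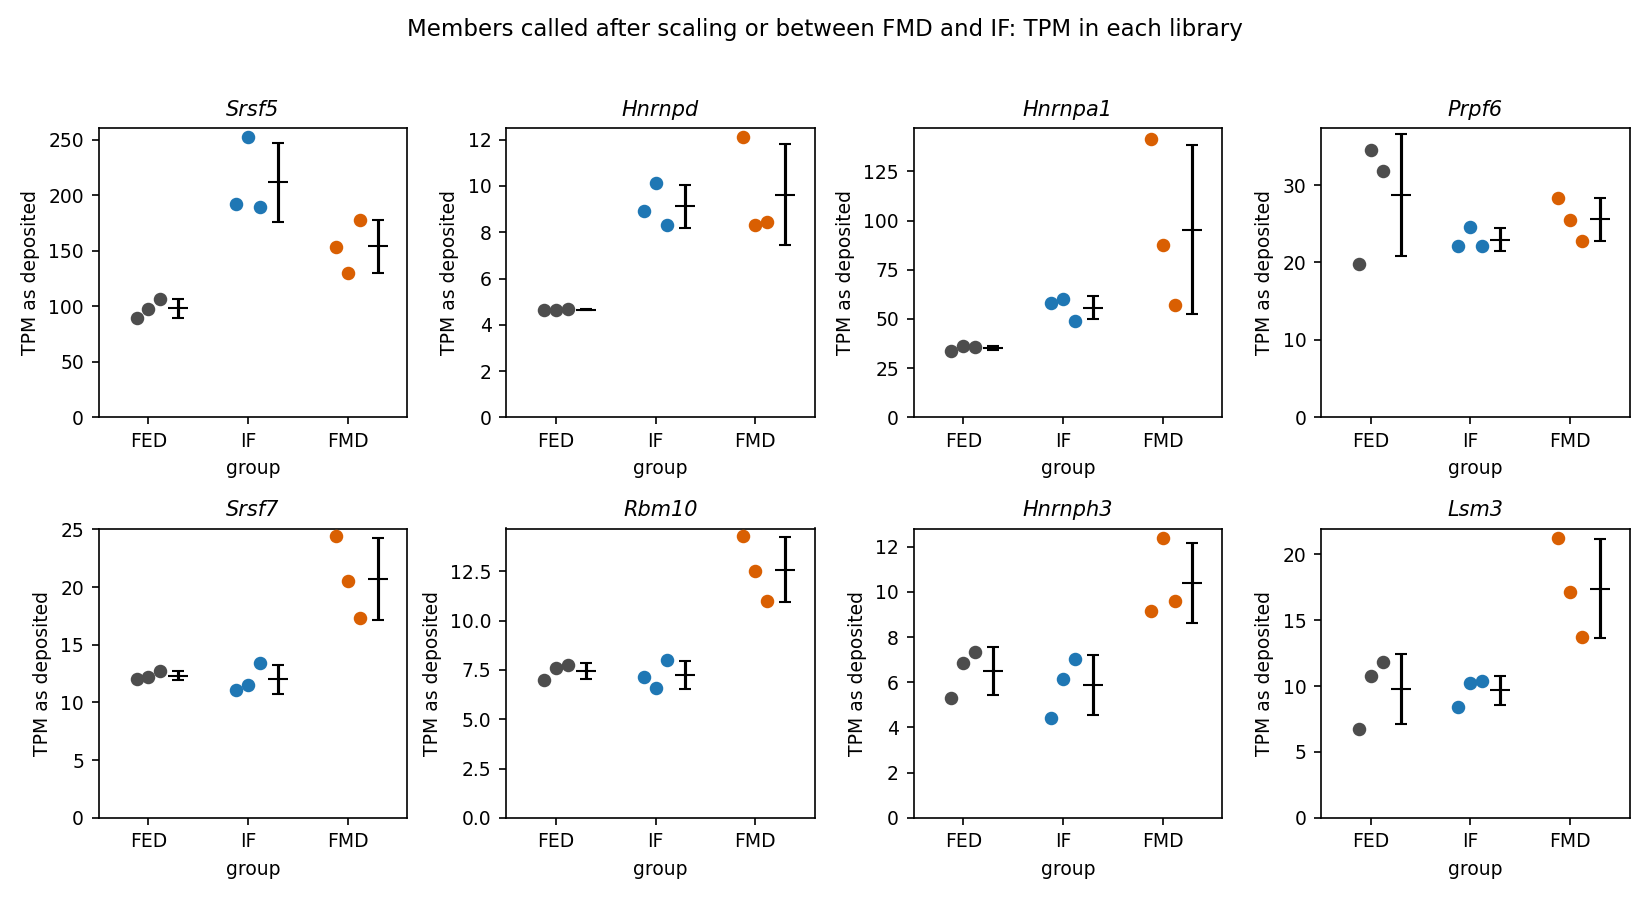
Points are the TPM as deposited of 8 members in each mouse (3 per group), and the bar beside each group is its mean with SD (n = 3). Srsf5 is highest in IF, and Hnrnpd is above the FED mice in both diets. The FMD points of Hnrnpa1 lie far apart, with replicate 1 the highest, and FED replicate 1 is the low Prpf6 point. Srsf7, Rbm10, Hnrnph3 and Lsm3 are higher in FMD than in FED or IF.

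Promoters are shown for the 4 members called in some comparison after scaling, that is, with the median shift of all listed genes removed. Each runs 5′ to 3′ from 250 bases before to 50 after a RefSeq transcription start (build GRCm38.p6, where the table's values were made on mm39), and capitals mark the motifs named below on either strand.
Hnrnpa1, chr15:103240147-103240446, plus strand: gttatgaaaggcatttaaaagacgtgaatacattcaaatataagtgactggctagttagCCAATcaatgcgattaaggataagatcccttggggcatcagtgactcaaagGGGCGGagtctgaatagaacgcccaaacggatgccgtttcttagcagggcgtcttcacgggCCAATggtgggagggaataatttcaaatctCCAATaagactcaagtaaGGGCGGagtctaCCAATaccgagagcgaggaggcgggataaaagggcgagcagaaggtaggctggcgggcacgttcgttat
Hnrnpd, chr5:99978889-99979188, minus strand: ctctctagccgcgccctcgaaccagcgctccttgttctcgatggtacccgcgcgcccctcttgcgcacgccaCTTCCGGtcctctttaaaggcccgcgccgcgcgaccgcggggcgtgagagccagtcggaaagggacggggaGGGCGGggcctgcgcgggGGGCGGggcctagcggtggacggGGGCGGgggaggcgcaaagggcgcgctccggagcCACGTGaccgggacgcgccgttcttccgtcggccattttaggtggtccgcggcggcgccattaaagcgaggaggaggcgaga
Prpf6, chr2:181601069-181601368, plus strand: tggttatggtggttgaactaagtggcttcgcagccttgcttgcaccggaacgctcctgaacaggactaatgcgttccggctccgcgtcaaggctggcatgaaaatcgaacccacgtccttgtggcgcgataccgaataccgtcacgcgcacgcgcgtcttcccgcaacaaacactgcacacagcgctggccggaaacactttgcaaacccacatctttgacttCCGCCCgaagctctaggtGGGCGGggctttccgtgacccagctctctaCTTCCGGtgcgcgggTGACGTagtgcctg
Srsf5, chr12:80945249-80945548, plus strand: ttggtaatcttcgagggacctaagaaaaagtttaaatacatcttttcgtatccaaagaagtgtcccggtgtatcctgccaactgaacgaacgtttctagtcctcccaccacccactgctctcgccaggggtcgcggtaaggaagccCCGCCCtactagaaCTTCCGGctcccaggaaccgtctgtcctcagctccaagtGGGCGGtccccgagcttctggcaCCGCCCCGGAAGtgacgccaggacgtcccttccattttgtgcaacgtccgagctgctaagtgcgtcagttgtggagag
The Hnrnpa1 promoter held 4 CCAAT boxes and 2 GC boxes, at 48.3% G and C. Hnrnpd held 3 GC boxes, 1 E-box and 1 ETS core at 72.3% G and C. In Prpf6 there were 2 GC boxes, 1 ETS core and 1 cyclic AMP response element core, and in Srsf5 3 GC boxes and 2 ETS cores, of which a GC box and an ETS core overlap. No motif of the list was common to all 4 promoters except the GC box.

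The motifs were searched on both strands in 74 promoters of the 64 members with a RefSeq entry, beside 4860 promoters of 3816 genes tested and 32851 promoters of 27025 genes in the RefSeq table, and overlaps between motifs were allowed. The cyclic AMP response element core (TGACGT) was found in 26.6% of the members, 14.8% of the genes tested and 8.37% of all genes. The YY1 core (ATGGCGG) was found in 18.8%, 11.4% and 4.69%, and the ETS core (CCGGAAG) in 31.3%, 24.7% and 9.93%. The NRF1 core (GCATGCG) stood at 12.5%, 8.54% and 4.01%. Shares near those of the genes tested were found for the CCAAT box (40.6%, 43.0% and 41.1%), the GC box GGGCGG (71.9%, 73.4% and 38.2%), the TATA box TATAAA (9.38%, 8.31% and 15.7%) and the E-box CACGTG (14.1%, 12.9% and 8.09%). The median G and C content of the members' promoters was 61.3%, against 61.7% for genes tested. These shares describe letters in a window and were not tested.

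In the GENCODE M21 annotation, 30 of the 72 members (41.7%) had a transcript marked for nonsense-mediated decay and 54 (75%) a retained-intron transcript. Among 4589 genes tested that matched by symbol these shares were 30.5% and 62.8%. Both kinds were annotated for 28 members (38.9%) and 25.02% of the genes tested, and the median number of transcripts per gene was 6 and 5. For several members part of the longest coding transcript matched other genes in windows of 75 bases, so reads could have been shared with near copies and the TPM is uncertain. The share of such windows was 54.1% in U2af1, 48.5% in Rbm12b2, 43.8% in Hnrnpa1, 32.4% in Rbm12 and 30.9% in Rbm10. It was 28.3% in Hnrnpk, 25.1% in Srsf3, 22.7% in Srsf5, 16.7% in Snrpe, 16.2% in Snrpg and 14.9% in Lsm3. In Srsf7, Prpf6 and Hnrnph3 it was 0.

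Genes of the same pathway outside the symbol rule were counted in the same fit. Of 30 other core spliceosome genes tested, 1 was called higher in IF (Pqbp1), 10 in FMD vs FED and 0 in FMD vs IF, against 10.3%, 35.5% and 4.67% of all genes. Their median log2 fold changes were 0.22, 0.52 and 0.30, against 0.24, 0.48 and 0.24 over all genes, and 11 of them had an unadjusted p under 0.05 in FMD vs IF. After scaling 0 were called higher, and 1, Snrnp25, was lower in both diets against FED. Of 15 other splicing regulators tested, 4 were called higher in IF, 10 in FMD vs FED and 1 in FMD vs IF, with medians of 0.33, 0.64 and 0.27. The shares and medians over all genes given above apply here too. After scaling 0, 1 and 1 of the 15 were called higher (3.69%, 5.49% and 1.11% of all genes), with medians of 0.06, 0.16 and 0.01. The one called in FMD vs IF was Tra2a, an SR-like protein, which after scaling was called in all 3 comparisons. It was lower in IF vs FED (-0.67, adjusted p = 0.046) and higher in FMD vs FED and in FMD vs IF. As deposited its IF vs FED value was -0.42 (adjusted p = 0.187) and not called, and IF and FED libraries overlapped. Of 3 SR protein kinases tested, 1 (Clk4) was called higher in FMD vs FED as deposited (35.5% of all genes) and 0 after scaling. Among other RNA helicases, Eif4a1 and Upf1 were called higher in FMD vs FED as deposited and not after scaling, and Mov10 was called lower after scaling.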

How the data were processed

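From the liver RNA of 9 mice the Beijing Genomics Institute made strand-specific mRNA libraries, which were read on a DNBSEQ sequencer. The authors deposited TPM per gene with 2 decimals, 1 column per mouse. The submitters' processing notes name the build mm39 and DESeq2, and the aligner, the quantification tool and the annotation are not given in the sources used here. The TPM do not give depth, so no counting error was computed. Samples were grouped by their labels.

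TPM were converted to log2(TPM + 1) for genes whose mean TPM reached 1. All 9 libraries entered 1 fit with limma 3.58.1 under R 4.3.3 (functions lmFit and eBayes, trend on), with Benjamini-Hochberg adjustment over all genes tested. Genes were called at an adjusted p below 0.05 and a fold change over 1.5 in either direction on this scale. Such fold changes understate the change of low genes. Scaled values were obtained as described in the results. Summaries used pandas 2.3.3 and numpy 2.4.6 in python 3.11.15, and matplotlib 3.10.9 drew the plots.

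Members and gene lists were chosen with earlier results of these data known. Genes named are the 5 with the largest and lowest changes called per comparison, as deposited or scaled, those called between FMD and IF, the most abundant and the lowest adjusted p in each group, and the paralogue sets Ddx5 and Ddx17, Ddx39a and Ddx39b, U2af1 and U2af2, Hnrnpa1 and Hnrnpa2b1, Snrpb and Snrpn, and Lsm14a and Lsm14b. Of these sets, genes that are not named in the results were not analysed here. Other called members, members below FED and genes outside the members were named after their values were seen. The lists of antiviral helicases, coregulator helicases and Rbm8a held 0 genes tested. Not every gene of the list of other RNA helicases is reported here. Alternatives covered the pseudocount, the filter, the scaling, the fit, the limits, a replicate block and each library left out.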

Additional observations from a re-analysis of the deposited data

Results flagged for a closer look

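In 4 members (5.56%, against 4.67% of all genes tested) the diets differed from each other by the direct test as deposited. Values were higher in FMD than in IF: Lsm3 (log2 fold change 0.77), Hnrnph3 (0.74), Srsf7 (0.73) and Rbm10 (0.72). None of these was called after scaling, nor with any 1 IF library left out. In Srsf5 (1.39% of the members, against 1.11% of all genes tested) the diets differed after scaling, with a lower value in FMD (-0.73). That call was lost when any library other than FMD replicate 4 was left out.

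After scaling, 3 members had all IF libraries below and all FMD libraries above the FED libraries, as did 32 of the 4665 genes tested (0.686%). This was seen in Dhx15, Rbm10 and Srsf7, whose scaled FMD vs IF values were 0.27, 0.47 and 0.47. Dhx15 was at 27.7 to 28.9 scaled TPM in IF, 29.3 to 30.6 in FED and 31.9 to 36.0 in FMD. By the direct test after scaling the adjusted p was 0.0888 for Dhx15, 0.04003 for Rbm10 and 0.0421 for Srsf7, and none of them passed the fold limit. The opposite movement itself was not tested, and the diets share the FED mice.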

How the results depend on the processing

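Median-ratio scaling lowered the counts of members called by limma in all 3 comparisons. The 5 members called in IF vs FED became 2 under median-ratio scaling, scaling to the same total, quantile normalization and the replicate block after median-ratio scaling, 8 with a pseudocount of 0.1 and 14 without the fold limit. The 33 members called in FMD vs FED became 2 under median-ratio scaling (1 higher, 1 lower), 2 under scaling to the same total (2 higher), 4 under quantile normalization (1 higher, 3 lower), 3 under the replicate block after median-ratio scaling (1 higher, 2 lower) and 55 without the fold limit. The 4 members called in FMD vs IF became 1, lower in FMD, under median-ratio scaling, 2 with no filter on low values, 7 without the fold limit and 0 under scaling to the same total, quantile normalization, separate fits per pair of groups and an adjusted p limit of 0.01, where 19, 13, 20 and 28 members had an unadjusted p under 0.05. With each library left out in turn, as deposited or after scaling, the counts ran from 0 to 6 in IF vs FED (0 after scaling without IF replicate 2, with 12 members at an unadjusted p under 0.05), from 1 to 41 in FMD vs FED and from 0 to 16 in FMD vs IF. Except for the block in FMD vs IF, given next, the other alternatives left each count within 1.5 times its value. Same-numbered libraries of different groups had correlations of 0.003 to 0.177 between their deviations from the group means over genes. Between different numbers the correlations ran from -0.202 to 0.211. FED replicates 2 and 3 and IF replicate 3 correlated best with another number. FED replicate 1, IF replicates 1 and 2 and FMD replicates 1 and 2 did so with their own. Whether the numbers pair the mice cannot be told from these values. With the replicate number as a block, 6, 40 and 15 members were called in the 3 comparisons. 3 values changed sign in some fit: Srsf5 in FMD vs FED (-0.0932 under the block after scaling, -0.10 to 0.75 with libraries left out), Hnrnph3 in FMD vs FED (-0.0452 to 0.69) and Prpf6 in FMD vs FED (-0.89 to 0.0197). Of 34 values of named members called as deposited or after scaling, 29 lost their call under median-ratio scaling, 29 under quantile normalization and 28 under scaling to the same total. Among values called in neither form, 12 of 27 in IF vs FED, 6 of 8 in FMD vs FED and 10 of 27 in FMD vs IF changed sign after median-ratio scaling. The cause was not tested. The unknown depth gives no limit for low counts, and 3 mice per group limit what could be called.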
